A study of Mus musculus with 4 samples.

Results

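The genes described are 10 components of the NF-kB pathway measured in mouse retina after inhibition of miR-124-3p. They were taken by name from the 48897 genes of the deposited table, and all 10 were found. Nfkb1, Nfkb2, Rel, Rela and Relb encode the DNA-binding subunits, Nfkbia, Nfkbie and Bcl3 encode inhibitors and a related nuclear cofactor, and Ikbkb and Ikbkg encode subunits of the IkB kinase (IKK). The anti-miR-124 group consisted of left eyes of wild-type mice (C57BL/6 in the labels, C57BL/6J in the study's methods) that received 0.6 nmol of a miR-124-3p antagomir in 1 μl into the vitreous on postnatal day 3. The NC group consisted of right eyes that received the same amount of a scrambled sequence. Retinas were collected on postnatal day 9 and were pooled, from more than 1 litter per group, and each group gave 2 libraries. Every eye was injected, the left eyes with the antagomir and the right eyes with the scrambled sequence. By design, effects of the eye's side, of the antagomir beyond miR-124-3p inhibition and of that inhibition cannot be told apart. Each library carries a number shared by 1 left-eye and 1 right-eye library, and sharing a number makes them pair A or pair B here. The libraries are named NC A, anti A, NC B and anti B after group and pair.

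NF-kB is a family of dimeric transcription factors that are held in the cytoplasm by IkB proteins. Signals from receptors for TNF, interleukin-1 and microbial products activate the IKK complex, which phosphorylates the IkB proteins and marks them for degradation, so that dimers such as RELA with p50, the product of Nfkb1, enter the nucleus. In a second, slower branch, the kinase encoded by Map3k14 leads to processing of the Nfkb2 product and to dimers with RELB. Several genes of the family are themselves targets of NF-kB, Nfkbia being the classic feedback inhibitor. In the nervous system the pathway is known for its part in the inflammatory response of microglia and macroglia. Much of this regulation acts on proteins and their localization, which RNA-Seq does not measure.

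The start regions of these genes were searched for the kappaB consensus, the DNA sequence bound by NF-kB dimers, because several genes of the family are known targets of it. RefSeq sequences (GRCm38.p6) from 250 bases before to 50 bases after a transcription start were held for 7 of the 10 members, and 5 of these, Nfkb2, Rel, Nfkbia, Nfkbie and Bcl3, contained a match on either strand. Rela, with 1 start region, and Ikbkg, with 4, contained none. The members had 12 such regions, of which 7 held a match, against 8.46% of all 32851 regions of this length. Regions of Nfkb1, Relb and Ikbkb were not analysed here. A match describes the letters only. The lines below give 1 match per gene in its surroundings, read 5′ to 3′ along the strand of the gene, with the match in capitals. The region of Nfkb2 is chr19:46305697-46305722, that of Rel chr11:23771044-23771069, that of Nfkbia chr12:55492659-55492684, that of Nfkbie chr17:45555586-45555611 and that of Bcl3 chr7:19822736-19822761.
Nfkb2: gtattttcGGGACTTTCCtaagcagc
Rel: taagcagcGGGAAATCCCcccccctc
Nfkbia: actggcttGGAAATTCCCcgcgcctg
Nfkbie: agcaaacaGGGGGATTCCggaggggc
Bcl3: ggcggcagGGGAAGTCCCgctgcccg
The Rel match was on both strands and overlapped another by all but 1 base, the Bcl3 match was on both strands, and the Nfkbia match was on the strand opposite to the gene. The matches of Rel, Nfkbia and Nfkbie began 92, 29 and 106 bases before the start. That of Bcl3 began at base 3 of the transcript. The Nfkb2 match began at base 11 of the transcript from one annotated start and 225 bases before another, and other matches were found around its annotated starts.

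The 4 libraries held between 16317239 and 18726963 reads counted on genes. The tissue label was borne out by photoreceptor markers, which summed to between 7902 and 9027 TPM (transcripts in each 1000000, from counts and gene length) in each library. NC A stood apart by lens transcripts, with 19 lens genes taking 6.06% of its TPM sum against 0.0116% to 0.0173% in the other libraries. This lowers every TPM value of that library, so differences between libraries are taken from counts scaled by TMM, a normalization that is little moved by a few abundant genes, and TPM gives the levels of genes and their shares. Anti B stood apart by microglial and gliosis transcripts, described below. Blood markers also differed, with summed TMM-scaled CPM (counts in each 1000000) of 71.9 in NC A, 262 in anti A, 121 in NC B and 73.0 in anti B. In this list Ly6g, Mpo and Elane, which mark neutrophils and their precursors, were at 0 in each library. S100a8 and S100a9 were also near the floor, with 0 to 4 and 1 to 5 counts per library. Of 7 pigment epithelium genes, 6 were tested, with a median log2 ratio of 1.08 for pair A and -0.06 for pair B.

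The 10 members fell into a higher and a lower tier of transcript level. Nfkbia was the most abundant, with 48.7 ± 4.5 TPM in the NC group and 49.5 ± 5.7 TPM in the anti-miR-124 group (mean ± SD, n = 2 libraries). It was followed by Ikbkb at 31.0 ± 1.3 and 32.3 ± 5.8 TPM, Rela at 24.8 ± 2.2 and 30.1 ± 7.0 TPM, Ikbkg at 21.0 ± 2.0 and 21.2 ± 2.3 TPM and Nfkb1, with a mean of 15.1 TPM over the 4 libraries. Over all 4 libraries, Nfkbia stood above Ikbkb without overlap, whereas the ranges of Ikbkb (28.2 to 36.4 TPM) and Rela (23.3 to 35.1 TPM) overlapped, although Ikbkb was above Rela within each library. The range of Ikbkg, 19.6 to 22.8 TPM, lay below that of Rela and above that of Nfkb1, 14.2 to 16.2 TPM. This place depends on the deposited gene length, 12455 bases for Ikbkg, 2918 for Rela and 4570 for Nfkb1. In TMM-scaled CPM, which do not use length, Ikbkg was the highest member, at 74.7 to 85.7. The lower tier comprised Nfkbie, with a mean of 3.99 TPM over the 4 libraries, Rel with 3.02, Relb with 2.94, Nfkb2 with 2.58 and Bcl3 with 1.14 TPM. The ranges of Nfkbie and Rel, of Rel and Relb, of Relb and Nfkb2 and of Nfkb2 and Bcl3 each overlapped. Within each library Nfkbie was the highest of this tier and Bcl3 the lowest, and the order of Rel, Relb and Nfkb2 varied between libraries. Among the 17766 genes that were tested, the mean TPM of Nfkbia lay at percentile 74.0, that of Rela at percentile 59.7 and that of Nfkb2 at percentile 18.1.

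**Figure D1:**
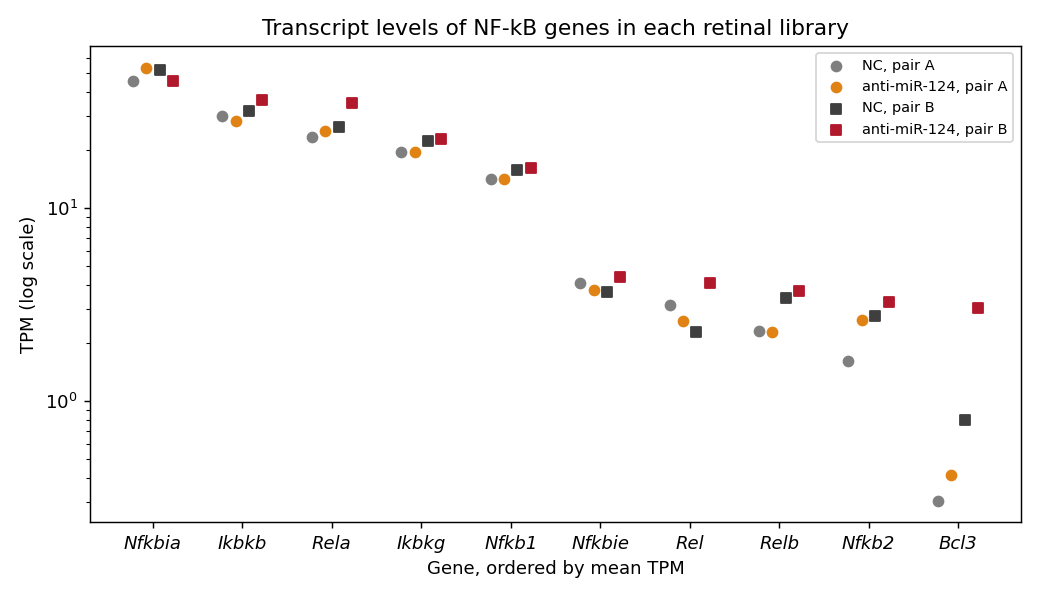
Each point is the TPM of a gene (log scale) in 1 of the 4 libraries, with genes ordered by their mean TPM. The genes from Nfkbia to Nfkb1 lie between 14.2 and 53.5 TPM, and the others between 0.306 and 4.40 TPM, with Bcl3 highest in anti B.

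No member differed between the groups by the test applied, which was edgeR's quasi-likelihood test on TMM-normalized counts, two-sided, with Benjamini-Hochberg adjustment over all genes tested. Bcl3 did not pass the filter on low counts, and 9 members were tested. None of them had an adjusted p-value under 0.05, as held for all tested genes (0%), and the smallest adjusted p-value of any gene was 0.487. None of the 9 had an unadjusted p-value under 0.05, a limit passed by 3.91% of all tested genes, of which 2.23% were higher and 1.68% lower. Of the 9, Nfkb2 and Rela had higher values in anti A than NC A and in anti B than NC B, and none was lower in both, where the shares of all tested genes were 22.8% for higher and 24% for lower. For none of the 10 did the groups separate, with the pair of anti libraries above or below the pair of NC libraries, an arrangement found, in each direction, for 16.5% of tested genes above and 16.8% below. The median log2 fold change of the 9 members was 0.01, with a median log2 ratio of -0.11 for pair A and 0.19 for pair B. Over all tested genes these medians were 0.0007, -0.0095 and 0.0031. Nothing in the labels says whether the libraries of a group came from separate sets of animals, and the p-values measure only the spread between these libraries.

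Among the subunits, Rela was even in 3 libraries and higher in the fourth. RELA is the subunit with a strong activation domain in the main NF-kB dimer. Rela (chr19:5637440-5648131) had 361 counts in NC A, 384 in anti A, 418 in NC B and 582 in anti B. In TMM-scaled CPM these were 22.4, 22.5, 23.1 and 30.9, so that anti B lay above the rest and the groups overlapped. The log2 ratio was 0.01 in pair A, with a 95% interval from counting error of -0.21 to 0.22, and 0.42 in pair B (0.23 to 0.60). The intervals of the pairs did not overlap. These intervals, computed exactly from the counts of 2 libraries, cover counting error only. Over both pairs the fitted log2 difference was 0.23 (standard error 0.15, 95% interval -0.14 to 0.60, adjusted p = 0.989, edgeR). It was -0.01 when anti B was dropped and 0.44 when anti A was dropped (unadjusted p = 0.00275, adjusted p = 0.129, edgeR).

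Rel encodes c-Rel, a subunit best known from lymphocytes and myeloid cells. Rel (chr11:23741729-23770970) had 43 counts in NC A, 35 in anti A, 32 in NC B and 60 in anti B. Its highest value was in anti B, with 3.18 TMM-scaled CPM, and the other libraries ranged from 1.77 to 2.67 CPM, with NC A above anti A, so that the groups overlapped. The log2 ratios were -0.38 in pair A (counting interval -1.07 to 0.30) and 0.84 in pair B (0.20 to 1.51). The log2 ratio of NC B over NC A, which got the same injection, was -0.59, and the log2 fold change over both pairs was 0.25 (standard error 0.36, adjusted p = 0.989, edgeR). Dropping anti B gave -0.10.

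Nfkb1 was the most even of the subunits. Its product is the precursor p105, from which the p50 subunit is made. Nfkb1 (chr3:135584655-135691982) had 345 counts in NC A, 340 in anti A, 390 in NC B and 421 in anti B, or 21.4, 19.9, 21.6 and 22.3 TMM-scaled CPM. The lowest and the highest value were both from anti libraries. Its log2 fold change was -0.03, with a 95% interval of -0.27 to 0.22, which spans fold changes from 0.831 to 1.16.

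Nfkb2 and Relb, the components of the slower branch of the pathway, were measured with few reads. Nfkb2 (chr19:46304320-46312090) had 32 counts in NC A, 51 in anti A, 56 in NC B and 69 in anti B. NC A was the lowest, and NC B lay above anti A, with 3.10 against 2.99 TMM-scaled CPM. The log2 fold change of Nfkb2 was 0.38, the highest among the tested members, with a standard error of 0.32, and the NC libraries alone differed by 0.64 on the log2 scale. The value of Nfkb2 was above 0 in the 13 alternatives with a value for each gene, from 0.10 to 0.74. A transcript on the opposite strand that overlaps it, 4833438C02Rik, had 15 to 19 counts. Relb (chr7:19606217-19629438) had 35 counts in NC A, 34 in anti A, 53 in NC B and 60 in anti B. For Relb, both libraries of pair B were higher than both libraries of pair A, and its log2 fold change was 0.02 (standard error 0.34, 95% interval -0.80 to 0.84), which spans fold changes from 0.573 to 1.79.

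Nfkbia had ratios of opposite sign in the pairs. It encodes IkB-alpha, the inhibitor that holds RELA dimers in the cytoplasm. Nfkbia (chr12:55489409-55492647) had 381 counts in NC A, 441 in anti A, 445 in NC B and 408 in anti B. The TMM-scaled values were 23.7 and 25.8 CPM for pair A and 24.6 and 21.6 CPM for pair B, so anti A was above NC A and anti B below NC B. The log2 ratios were 0.13 (counting interval -0.07 to 0.33) and -0.19 (-0.38 to 0.01), and the log2 fold change over both pairs was -0.03 (standard error 0.11, 95% interval -0.29 to 0.24, adjusted p = 0.995, edgeR). Nfkbie, which encodes IkB-epsilon, had between 48 and 61 counts in every library (chr17:45555700-45563169). Its log2 ratios were -0.23 (pair A) and 0.25 (pair B), with 0 inside both counting intervals.

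Bcl3 had the largest pair ratio of the 10 members, and it rests on anti B. Bcl3 encodes an IkB-related protein that acts in the nucleus with p50 and p52 dimers, and its gene is known to be induced by cytokines. Bcl3 (chr7:19808462-19822767) had 3 counts in NC A, 4 in anti A, 8 in NC B and 32 in anti B. Anti B stood above the rest, while NC B lay above anti A. Anti B was 3.83-fold above NC B (log2 ratio 1.94, counting interval 0.79 to 3.27), and in pair A the log2 ratio was 0.33, with a counting interval from -2.23 to 3.10. Under a looser filter, a mean of 10 counts or more, the log2 fold change of Bcl3 was 1.60 (standard error 0.94, unadjusted p = 0.139, adjusted p = 0.983, edgeR). With no filter its unadjusted p-value was 0.00591 and its adjusted p-value 0.309. With anti B dropped, Bcl3 did not pass the filter. A long noncoding gene on the opposite strand that overlaps it, Gm16174, had 0 to 4 counts.

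The IKK subunits were the members with the most reads. Ikbkb, which encodes the catalytic subunit IKK-beta (chr8:22659205-22706591), had 733 counts in NC A, 675 in anti A, 796 in NC B and 949 in anti B. In TMM-scaled CPM, the NC libraries were close to each other, at 45.5 and 44.1, while anti A lay below and anti B above them, at 39.5 and 50.3. The log2 ratios therefore had opposite signs, with -0.20 in pair A (counting interval -0.36 to -0.05) and 0.19 in pair B (0.05 to 0.33), and the log2 fold change was 0.01 (standard error 0.12, 95% interval -0.29 to 0.30). Ikbkg encodes NEMO, the regulatory subunit through which the complex is activated (chrX:74393291-74456792). It had between 1276 and 1616 counts, and its log2 fold change was -0.04 (standard error 0.09), with a 95% interval of -0.24 to 0.17. In the deposited positions Ikbkg shares 19676 bases with G6pdx on the opposite strand, a gene with 1089 to 1387 counts. The library kit keeps strand, but whether the counting used it is not given in the sources used here, so reads of these genes cannot be told apart with certainty.

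**Figure D2:**
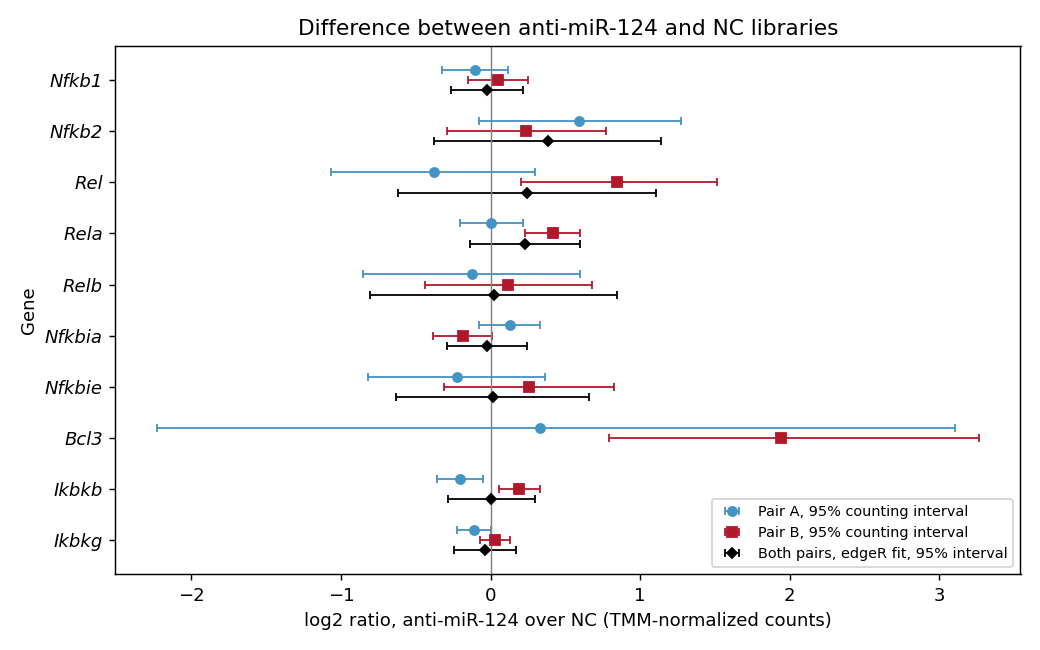
Points are log2 ratios of anti-miR-124 over NC from TMM-normalized counts, for pair A (circles) and pair B (squares) with exact 95% intervals of counting error, and for both pairs together (diamonds) with the 95% interval of the edgeR fit, which Bcl3 lacks. All 9 fitted intervals include 0. The pair B intervals of Rel, Rela, Bcl3 and Ikbkb lie above 0, and the pair A interval of Ikbkb lies below 0.

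Shares within a library do not depend on its scaling. Rela made up 52.2% of the summed subunit TPM in NC A, 53.7% in anti A, 52.1% in NC B and 56.3% in anti B. The share of Nfkb1 was 31.9%, 30.3%, 31.1% and 26.0% in the same order. Anti B thus had the highest share of Rela and the lowest of Nfkb1. The ratio of Nfkbia to Rela TPM was 1.95 and 2.12 in pair A and 1.97 and 1.30 in pair B, again with anti B apart from the rest. The TPM of Nfkbia, Nfkbie and the IkB-related Bcl3 together, divided by that of the subunits, was 1.12, 1.23, 1.11 and 0.848. This sum does not hold all inhibitors. Nfkbib, an IkB gene outside the members with 18.5 to 20.7 TPM, was left out. With 2 libraries a group, the smallest p-value an exact permutation test can give is 0.333, and these ratios were not tested.

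**Figure D3:**
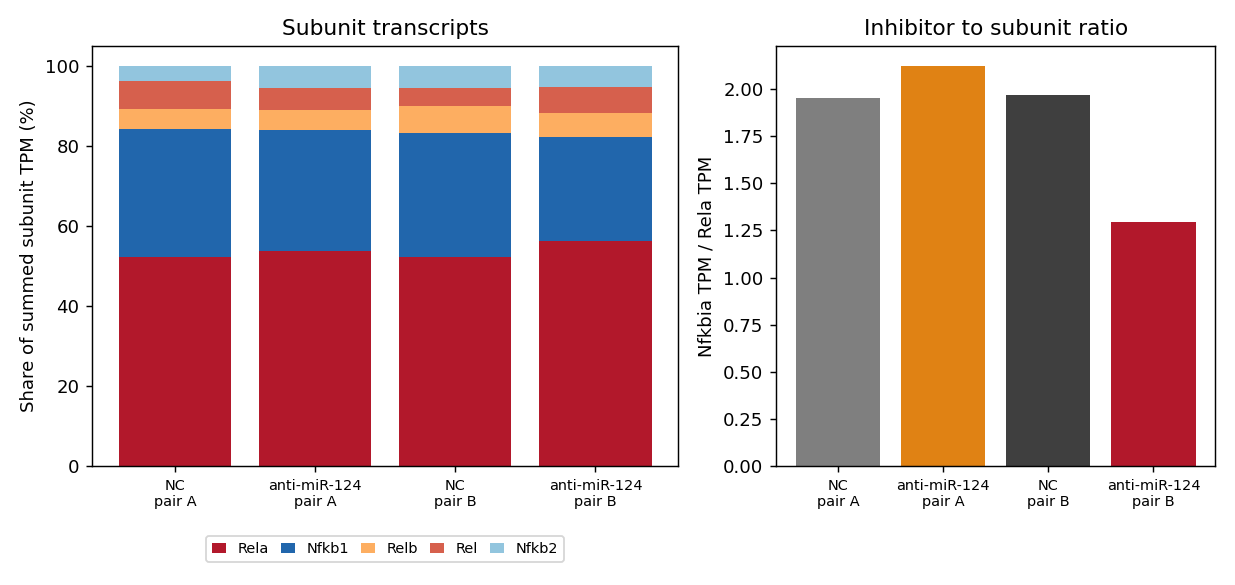
Left, stacked bars give the percentage of the summed TPM of the 5 subunit genes in each library. Right, bars give the TPM of Nfkbia divided by that of Rela, which is 1.30 in anti B and 1.95 to 2.12 in the other libraries.

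The remaining IkB and IKK genes gave no called difference either, and their values differed in direction. Tbk1, an IKK-related kinase of the interferon response, had 45.1 TMM-scaled CPM in NC A, 39.2 in anti A, 46.5 in NC B and 39.3 in anti B, so the groups did not overlap. Its log2 fold change was -0.22 (standard error 0.08, unadjusted p = 0.0223, adjusted p = 0.989, edgeR). Chuk, which encodes the catalytic subunit IKK-alpha, was also lower in anti A and anti B than in either NC library, with a log2 fold change of -0.11 (standard error 0.08). Groups separated in this direction for 2 of these 6 genes, beside 16.8% of all tested genes. An unadjusted p-value under 0.05 with a lower value (edgeR) was found for 1 of the 6, beside 1.68%. These 6 were listed with earlier results of these data known, so the counts are no test. Ikbke, a second IKK-related kinase, had 9 counts in NC A, 12 in anti A, 13 in NC B and 34 in anti B, and a log2 fold change of 0.97 (standard error 0.55). The values of the IkB genes Nfkbib, Nfkbid and Nfkbiz were 0.07, 0.23 and 0.24, and Nfkbiz had a log2 ratio of -0.48 for pair A and 0.77 for pair B.

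Upstream components were counted in lists chosen by role, with earlier results of these data known. Their counts beside all tested genes are therefore no test. In these lists no gene had an adjusted p-value under 0.05 (edgeR). Of 10 ligand genes 2 passed the filter. Il1a, which encodes interleukin-1 alpha, had 18 to 26 counts per library and a log2 fold change of 0.20, and Tnfsf12, which encodes TWEAK, had one of 0.03. Tnf had 0 counts in NC A and NC B, 1 in anti A and 3 in anti B. All 12 receptor genes were tested, with 5 of them higher in each pair and 1 lower in each (22.8% and 24% of all tested genes), at a median log2 fold change of 0.34. The highest was that of Tnfrsf1b, which encodes TNF receptor 2, with 46 counts in NC A, 43 in anti A, 43 in NC B and 233 in anti B. The fitted log2 difference was 1.51 with a standard error of 0.67 (edgeR, adjusted p = 0.989). Tlr2 and Tlr4, receptors for bacterial products, had log2 fold changes of 1.22 (standard error 0.52) and 0.82 (standard error 0.39), with log2 ratios of 0.09 in pair A for both and of 2.07 and 1.46 in pair B. Among 24 adaptor and kinase genes, 9 had higher values in each pair and 2 had lower ones, beside the same 22.8% and 24%, at a median of 0.07. The adaptor Traf5 and the kinases Ripk1 and Map3k14 had log2 fold changes of 0.34, 0.34 and 0.27, each with log2 ratios under 0.15 in pair A and of 0.50 to 0.63 in pair B.

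Of 24 target genes 12 passed the filter, of which 7 were higher in both pairs and none was lower in both, beside 22.8% and 24% of all tested genes. Their median log2 fold change was 0.45, from a median log2 ratio of 0.03 for pair A and 0.85 for pair B, beside 0.0007 for all tested genes. Csf1 encodes a growth factor of microglia. It had 106 counts in NC A, 145 in anti A, 145 in NC B and 409 in anti B. The log2 fold change of Csf1 was 1.05 (standard error 0.41, unadjusted p = 0.0408, adjusted p = 0.989, edgeR). Vcam1 and Birc3, named for their values, also had an unadjusted p-value under 0.05 (0.0216 and 0.036, edgeR), making 3 of 12 higher, beside 2.23% of all tested genes. Vcam1 had log2 ratios of 0.57 in pair A and 0.44 in pair B. Birc3, with 4 to 27 counts, had 0.60 and 2.55. Tnfaip2 had 16 counts in NC A, 17 in anti A, 11 in NC B and 58 in anti B. Lcn2, a secreted protein of reactive glia, had 10 counts in NC A, 8 in anti A, 9 in NC B and 54 in anti B, and a log2 fold change of 1.59 (standard error 0.81). Of 8 feedback regulators 6 were tested, with a median of 0.03. Tnfaip3, which encodes the ubiquitin-editing inhibitor A20, had log2 ratios of 0.17 and -0.05 and a log2 fold change of 0.06 (standard error 0.09). The values of its partners Tnip1 and Tnip2 were 0.12 and -0.06. Over the same 12 target genes the median was 0.11 with anti B dropped, 0.27 with NC B dropped, 0.67 with anti A dropped and 0.70 with NC A dropped. These 12 had passed the filter with anti B included. Of them 10 were highest in it, and the share of all tested genes was not counted. The list was chosen with earlier results of these data known, so its counts beside all tested genes are no test.

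Of 16 markers of microglia, the resident immune cells of the retina, 15 were highest in anti B. The exception was P2ry12, with 5.21 TMM-scaled CPM in anti A and 4.46 in anti B. By the same measure every NF-kB member except Nfkbia and Nfkbie was highest in anti B. The share of all tested genes that were highest in anti B was not counted, so nothing is drawn from these counts. All 16 markers were tested and none was at 0. In both pairs 6 were higher and none was lower, beside 22.8% and 24% of all tested genes. The marker lists too were chosen with earlier results of these data known, so these counts are no test. The summed TMM-scaled CPM of the list was 172 in NC A, 163 in anti A, 134 in NC B and 379 in anti B. The median log2 ratio of these markers was -0.09 within pair A and 1.73 within pair B, beside pair B ratios of the members that ran from -0.19 for Nfkbia, 0.03 for Ikbkg and 0.05 for Nfkb1 to 0.42 for Rela, 0.84 for Rel and 1.94 for Bcl3. Gliosis genes, of which 9 of 10 were tested, had medians of -0.39 and 1.98 in the 2 pairs. The median of 8 endothelial and pericyte markers was -0.22 and -0.07. Photoreceptor markers had medians of -0.04 and -0.01. The same 3 of the 9 had higher values in each pair and the same 4 had lower ones, beside the same 22.8% and 24%. Opn1sw, the short-wavelength cone opsin, had a log2 fold change of -0.82 (unadjusted p = 0.000969, edgeR), the cone arrestin Arr3 of -0.61 (unadjusted p = 0.0472, edgeR), the rod transducin Gnat1 of -0.38 (unadjusted p = 0.00281, edgeR) and Nrl, a rod transcription factor, of 0.16 (unadjusted p = 0.0114, edgeR). Of the 9, 1 was thus higher and 3 were lower, beside 2.23% and 1.68% of all tested genes. These genes were named after their values were seen, and none of them passed after adjustment. In pooled tissue, more cells of a type and more RNA per cell cannot be told apart, and the part of microglia, glia and photoreceptors in the values of the NF-kB genes was not tested. With anti B dropped, 2 of the 9 tested members had a log2 fold change above 0, against 6 of 9 with all libraries, and the medians of the microglia and gliosis lists were 0.10 and -0.24.

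**Figure D4:**
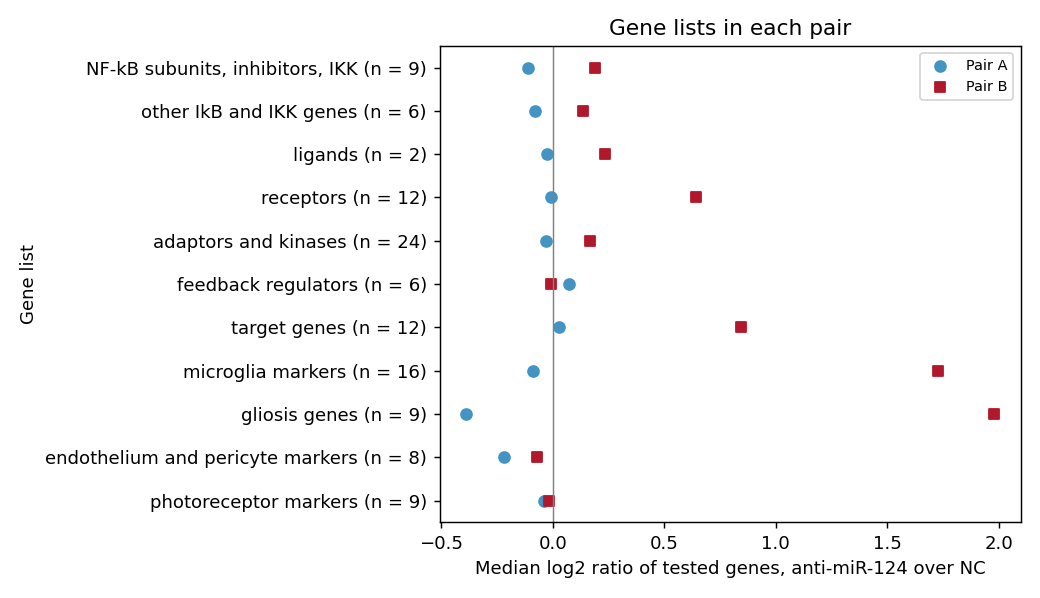
Points are the median log2 ratios of the tested genes of each list, anti-miR-124 over NC, in pair A (circles) and pair B (squares). In pair A the medians of all lists shown lie between -0.39 and 0.07, and in pair B those of the receptors, target genes, microglia markers and gliosis genes lie between 0.64 and 1.98. Lens, blood and pigment epithelium lists are not shown. Their medians were -8.53, 1.86 and 1.08 in pair A and 0.44, -0.68 and -0.06 in pair B.

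Genes whose pattern over the 4 libraries was most like that of Nfkbia, Nfkb2, Relb and Bcl3 together, a set fixed by the rule for named genes, were sought by the Euclidean distance of log2 CPM deviations. The mean deviations of these members were -0.42 in NC A, -0.22 in anti A, 0.08 in NC B and 0.56 in anti B. This mean gives most weight to Bcl3, with 3 to 32 counts, and Nfkbia runs against it, being lowest in anti B with 21.6 TMM-scaled CPM. The closest genes were Nlrx1 at a distance of 0.21, Myof at 0.22, Parp4 at 0.24, Galns at 0.26 and ENSMUSG00000097533.1 at 0.27. Over 4 libraries many genes can share such an order, and nothing is drawn from it. In these genes as in that mean, both libraries of pair B lay above both libraries of pair A, an order that the choice by distance favours.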

How the data were processed

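RNA-Seq of pooled mouse retinas gave 4 libraries, 2 per group. The authors deposited raw read counts per gene, not normalized, with gene lengths and positions, and RPKM values that they computed from these counts, which were not used here. HISAT2 and mm9 are named in the submitters' processing notes, but 99.8% of 36837 matched genes overlapped their RefSeq position in GRCm38, so coordinates are given as GRCm38. The counting tool was not given in the sources used here. Columns were assigned to groups by the eye they name.

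Counts were tested with edgeR 4.0.16 (R 4.3.3) after filterByExpr and TMM, without covariates, at an adjusted p of 0.05. Libraries held 16317239 to 18726963 counts, and precision is lowest for genes with few reads. Ratios per pair used TMM-scaled counts, with a prior count of 0.5 for lists and none for the 10 members, and intervals were exact binomial ones. TPM was computed from counts and lengths. On simulated data, the check required only that the median estimates of the largest changes lay near the values set. It put no limit on false calls, so it does not speak to the error rate of the test. DESeq2 1.42.0, other normalizations and filters, a replicate block, TPM, exclusion of lens genes and leaving out each library were alternatives.

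The members and lists were chosen with earlier results of these data known. Named were all members, the other IkB and IKK genes, the 3 genes per pathway list with the largest absolute log2 fold change and a mean of at least 20 counts, and the 5 genes most like the mean of Nfkbia, Nfkb2, Relb and Bcl3 with a mean of at least 100 counts. Tnf, G6pdx, Vcam1, Birc3, P2ry12, other overlapping genes and the photoreceptor genes were named after their values were seen. The mature sequence of miR-124-3p is not printed here.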

Additional observations from a re-analysis of the deposited data

How the results depend on the processing

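The crossed pairing, the counts of members above 0 and the medians over the same genes without 1 library were chosen after seeing the data. No gene had an adjusted p-value under 0.05 by edgeR, and 694 genes had an unadjusted one under 0.05. The count of adjusted calls was 379 with no filter and 36 with DESeq2's Wald test, and 0 to 256 when 1 library was left out, the 256 being without anti A. Genes at an unadjusted p-value under 0.05 numbered 1577 with no filter, 308 with DESeq2 and 333 to 1893 when 1 library was left out. With the replicate block they numbered 376, and no gene passed after adjustment. The main test did not use the numbers as a block, because the labels do not say what a shared number marks. The deviations of same-numbered libraries had a correlation of -0.16. With 1 difference per group, this cannot decide whether the libraries were paired. With the numbers crossed, 160 genes passed after adjustment and 1306 before. The count of members at an unadjusted p-value under 0.05 was 0, but 1 with no filter (Bcl3) and 0 to 2 when 1 library was left out, the 2 being Rela and Bcl3 without anti A. No member passed after adjustment in any alternative. The members' median log2 fold change of 0.01 lay between -0.10 and 0.24 when 1 library was left out, and the number of members above 0 between 2 and 9. Bcl3 entered some of these fits, and over the 9 members tested with all libraries the highest median was 0.17 and the highest number above 0 was 8. Of the 9 tested members, Nfkb2 kept its sign in the 13 alternatives with a value for each gene and the others did not, while Bcl3 was above 0 in each edgeR fit that held it. The crossed pairing was run for counts only. Ikbkb was -0.0035 with the replicate block, and Nfkb1, Nfkbia and Ikbkg were 0.023, 0.022 and 0.013 by TPM. When 1 library was left out, the log2 fold change ranged from -0.11 to 0.054 for Nfkb1, from -0.10 to 0.56 for Rel, from -0.014 to 0.44 for Rela, from -0.36 to 0.31 for Relb, from -0.16 to 0.10 for Nfkbia, from -0.12 to 0.16 for Nfkbie, from -0.18 to 0.17 for Ikbkb and from -0.13 to 0.059 for Ikbkg. The cause of these shifts was not tested. The lone library of a group is then assumed to vary like the others. Members higher in both pairs, Bcl3 included, numbered 3 by TMM and 4 by TPM.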
